A study of Mus musculus with 18 samples.

Results

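The genes that write, copy, read and erase DNA methylation were followed in mouse cardiomyocytes sorted by the number of their nuclei. The 7 genes were chosen by name from the 12048 genes listed in each library, with earlier results of these data known, and all 7 were measured. They are the maintenance methyltransferase Dnmt1, the reader Uhrf1, the de novo methyltransferases Dnmt3a and Dnmt3b, and the 5-methylcytosine dioxygenases Tet1, Tet2 and Tet3. The cells came from hearts of Mlc2vcre:R26REYFP mice, in which Cre is made under the control of Mlc2v, the ventricular myosin light chain gene also called Myl2, and turns on the EYFP reporter. All 6 groups carried both alleles, and whether the sort used the reporter is not given here. Mononucleated (MoNuc) and binucleated (BiNuc) cardiomyocytes were collected by flow cytometry late in gestation (E18.5), at postnatal day 7 (P7) and in the adult. RNA sequencing gave 3 libraries in each of the 6 groups, 18 in all. The age of the adults, the number of animals behind a library and the way nuclei were counted in the sort are not given here, so p-values measure the spread between libraries, which may be partly technical.

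Methylated cytosine in mammals lies mostly in CpG dinucleotides. When DNA is replicated the new strand starts without methylation, Uhrf1 binds the hemimethylated sites, and Dnmt1 copies the mark, so that both are needed above all in S phase. Dnmt3a and Dnmt3b set new methylation, and the TET enzymes oxidise 5-methylcytosine with 2-oxoglutarate as a co-substrate, after which the base can be lost by replication or cut out by base excision repair. Rodent cardiomyocytes leave the cell cycle and become binucleated around the first postnatal week, a period in which their DNA methylation is known to be remodelled.

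The authors' log2 values resolved into whole read counts, from which depth-scaled counts (CPM) were formed. Library totals ranged from 14833334 to 22690952 counts. The 8 cardiomyocyte markers, the sarcomere and calcium-handling genes Myl2, Myh6, Myh7, Tnnt2, Tnni3, Actc1, Ryr2 and Pln, summed to between 28000 and 46400 CPM in every library. Binucleated library 1 at E18.5 stood apart: its log2 values correlated with those of the other 2 libraries of its group at 0.884 and 0.896, against 0.954 or more for all other pairs of one group, and it had the lowest total. Differences that rest on it are given with and without it. The E18.5 binucleated libraries also held more transcripts of several other cell types than the mononucleated ones. Fibroblast markers summed to 325 to 912 CPM against 50.2 to 99.9 (6 of 8 higher), endothelial markers to 36.5 to 114 against 11 to 28.1 (3 of 9 higher), and leukocyte markers to 4.46 to 10.3 against 0 to 0.803 (4 of 5 higher). Of all genes 0.739% were higher. Erythroid sums were 101 to 177 against 38.5 to 67.3 CPM and epicardial sums 52.4 to 56.2 against 28.4 to 34.5 CPM, with 0 genes of either list called. Pericyte and smooth muscle sums overlapped, at 1320 to 1680 against 1420 to 1520 CPM (1 of 7 higher). Binucleated library 1 held the least fibroblast, endothelial and leukocyte transcripts of its group (325, 36.5 and 4.46 CPM) and the most erythroid ones (177 CPM). Values without it therefore rest on the binucleated libraries with more fibroblast, endothelial and leukocyte transcripts. The part of these cells in the E18.5 results was not tested.

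The start regions of Dnmt1 and Uhrf1 are shown because these were the 2 genes that differed between the nuclear classes and both regions hold the same kind of motif. Each is a window of 300 bases, 250 before and 50 after an annotated start, from RefSeq on build GRCm38.p6. Capitals mark the octamers TTTCCCGC, TTTCGCGC, TTTGCCGC and TTTGGCGC, which are forms of the binding motif of the E2F family, the transcription factors of S-phase entry, read on both strands with overlaps allowed. Dnmt1 has 3 annotated starts and Uhrf1 has 2, and the one richest in CpG is printed.
Dnmt1, chr9:20952574-20952873, minus strand: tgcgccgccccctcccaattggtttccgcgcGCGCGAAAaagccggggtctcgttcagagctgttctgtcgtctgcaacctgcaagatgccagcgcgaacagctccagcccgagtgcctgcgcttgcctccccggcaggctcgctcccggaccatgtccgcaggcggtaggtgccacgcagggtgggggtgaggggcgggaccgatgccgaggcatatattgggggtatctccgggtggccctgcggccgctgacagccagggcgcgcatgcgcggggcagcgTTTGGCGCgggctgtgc
Uhrf1, chr17:56304063-56304362, plus strand: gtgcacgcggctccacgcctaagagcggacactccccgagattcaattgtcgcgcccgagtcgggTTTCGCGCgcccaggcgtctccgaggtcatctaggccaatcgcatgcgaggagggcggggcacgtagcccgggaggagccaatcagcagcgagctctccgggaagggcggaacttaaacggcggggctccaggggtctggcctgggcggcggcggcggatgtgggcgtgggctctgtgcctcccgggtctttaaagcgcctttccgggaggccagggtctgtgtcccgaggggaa
Both windows hold 33 CpG dinucleotides, against a median of 7 over 32851 windows of the same length, which were not picked for CpG. The other starts hold 12 and 2 for Dnmt1 and 12 for Uhrf1. The richest windows of the remaining genes hold 17 (Tet1) to 57 (Tet2), so a high CpG number is not particular to the pair. The Dnmt1 window has an octamer beginning at position -219 and another at position 34 relative to the start (counted as 1), and the Uhrf1 window has 1 at position -185. Of all windows 2.26% hold such an octamer. Among genes, 704 of 27025 (2.6%) have at least 1 window with it, and so do 6 of the 11 S-phase genes described below that have a window, namely Mcm3, Mcm5, Mcm6, Mcm7, Cdt1 and Pold1. The windows of Dnmt3a, Dnmt3b, Tet1, Tet2 and Tet3 do not contain these letters. Each of these octamers contains a CpG, and the shares over all windows and genes were not matched for CpG number. They therefore do not show whether the pair or the S-phase genes hold more octamers than windows as rich in CpG. A match is a description of the sequence and does not show that a factor binds there.

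Maintenance methylation genes separated the nuclear classes at P7. Dnmt1 stood at 97.0, 108 and 101 CPM in the 3 mononucleated libraries and at 29.2, 28.8 and 37.2 CPM in the 3 binucleated libraries. The groups did not overlap, and every binucleated library lay below the lowest mononucleated one. Dnmt1 was 3.23-fold lower in binucleated cells (log2 fold change -1.69 ± 0.30, SE, n = 3 and 3 libraries, limma adjusted p = 0.00463). Uhrf1, which brings Dnmt1 to replicated DNA, read 59.1, 87.2 and 65.9 CPM in mononucleated and 8.33, 7.69 and 14.4 CPM in binucleated cells. Again the groups were fully apart. It was 7.15-fold lower (log2 -2.84 ± 0.40, limma adjusted p = 0.000717). In RNA from sorted pools, fewer cells expressing a gene and less RNA per cell cannot be told apart.

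These were 2 of 7 genes lower in binucleated cells at P7, where 2.06% of all genes tested were lower. The median log2 change of the 7 genes was -0.10, beside 0.02 for all genes. The other 5 genes did not pass the test at P7. Dnmt3a differed by -0.10 on the log2 scale with a 95% interval from -0.53 to 0.33, Tet1 by 0.22 (-0.20 to 0.64), Tet2 by 0.20 (-0.27 to 0.67) and Tet3 by 0.02 (-0.50 to 0.53), and none of these intervals reached past 0.67 in either direction. For the scarce Dnmt3b the interval was wide, from -1.64 to 0.61. Markers of other cells overlapped between the classes at P7. Fibroblast markers summed to 20.9 to 47.3 CPM in mononucleated and 19.1 to 31.5 CPM in binucleated libraries, and endothelial markers to 6.48 to 18.9 and 7.72 to 8.38 CPM. Of 46 measured markers of 7 cell types 0 passed in limma, beside 2.12% of all genes in either direction. An unadjusted p under 0.05 was reached by 7 of the 46, beside 1210 of all 12048 genes. The leukocyte genes Laptm5 and C1qb had 0 counts in all P7 mononucleated libraries, and C1qc in all P7 binucleated ones. Cardiomyocyte markers summed to 31600 to 34200 CPM in mononucleated and 37200 to 42400 CPM in binucleated libraries.

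**Figure D1:**
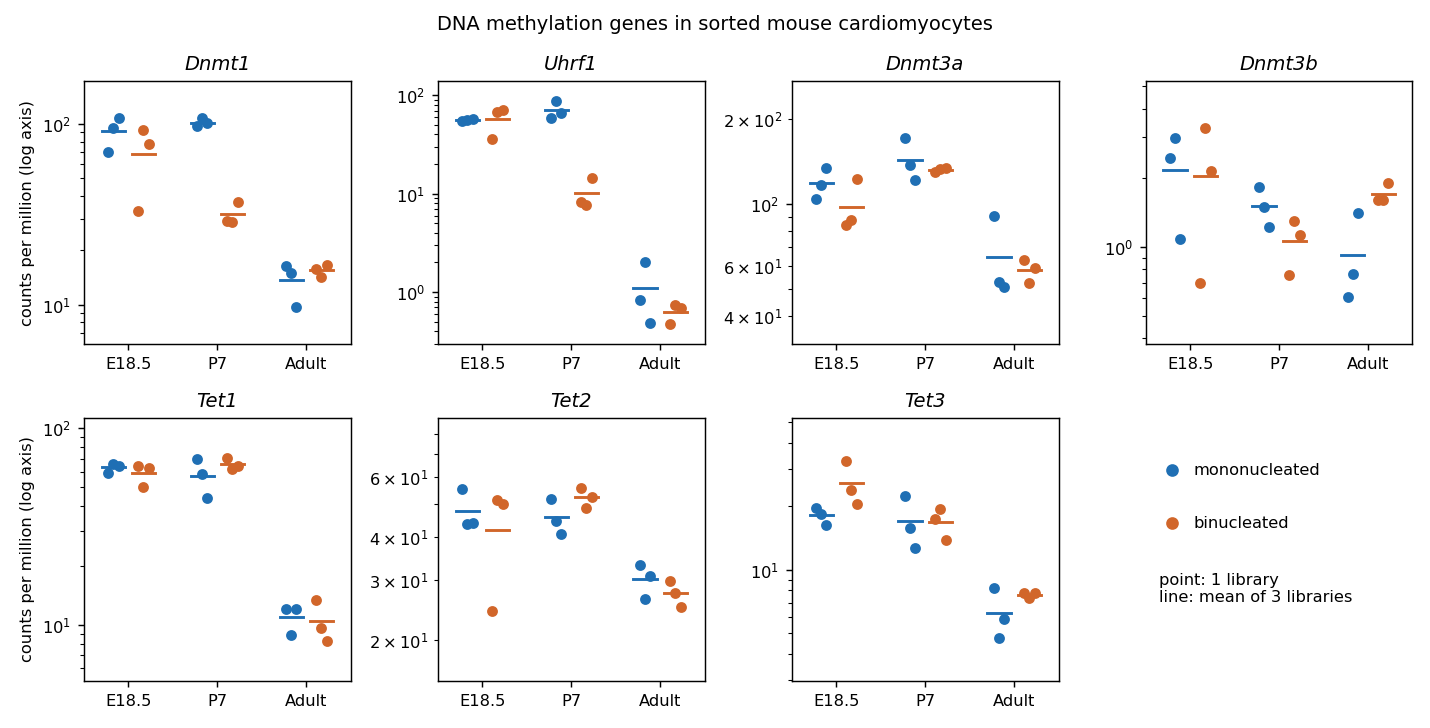
CPM (log axis) of the 7 genes by age; each point is 1 library and each line the mean of 3, blue for mononucleated and orange for binucleated cells. At P7 the binucleated libraries lie at 28.8 to 37.2 CPM for Dnmt1 and 7.69 to 14.4 CPM for Uhrf1, below the mononucleated libraries of that age. For 6 of the 7 genes both adult means lie below the means of all younger groups. For Dnmt3b the adult mononucleated mean (0.924 CPM) is the lowest, but the adult binucleated mean (1.70 CPM) lies above both P7 means.

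At E18.5 and in the adult no class difference passed the test for any of the 7 genes. Dnmt1 at E18.5 read 69.7, 95.4 and 108 CPM in mononucleated and 32.8, 93.3 and 77.6 CPM in binucleated libraries, with binucleated library 1 the lowest. Uhrf1 read 54.9, 56.1 and 57.3 CPM against 35.8, 68.0 and 70.0 CPM, again with library 1 lowest and the other 2 above the mononucleated values. The classes overlapped for both genes. With limma, 0 of 7 genes passed at E18.5, beside 0.805% of all genes in either direction, and 0 passed with voom weights. Of the 7, 0 had an unadjusted p under 0.05, beside 1679 of all 12048 genes. The log2 difference was -0.53 ± 0.30 for Dnmt1 (adjusted p = 0.423) and -0.02 ± 0.40 for Uhrf1 (adjusted p = 0.987). Without binucleated library 1 they were -0.07 and 0.30, and no gene was called.

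Adult cells of either class held little of the pair. Dnmt1 stood at 16.4, 15 and 9.67 CPM in mononucleated and 15.8, 14.3 and 16.6 CPM in binucleated adult libraries. Uhrf1 stood at 0.823, 2.01 and 0.49 CPM and at 0.473, 0.733 and 0.689 CPM, which rests on 8 to 29 counts per library. The ranges overlapped for both. In the adult, 0 of 7 genes passed in limma, beside 0.0913% of all genes, and 0 passed with voom weights. Of the 7, 0 had an unadjusted p under 0.05, beside 301 of all 12048 genes. The adult limma intervals ran from -0.42 to 0.85 for Dnmt1 and from -1.42 to 0.28 for Uhrf1 (log2). A difference of the size seen at P7 lies outside both intervals, which use a spread shared over the 6 groups. For Uhrf1 the log2 values varied most in adult mononucleated cells (SD 0.998, against 0.328 in adult binucleated cells), so its interval may be too narrow. The direct test of the change from P7, given below, did not pass for either gene.

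**Figure D2:**
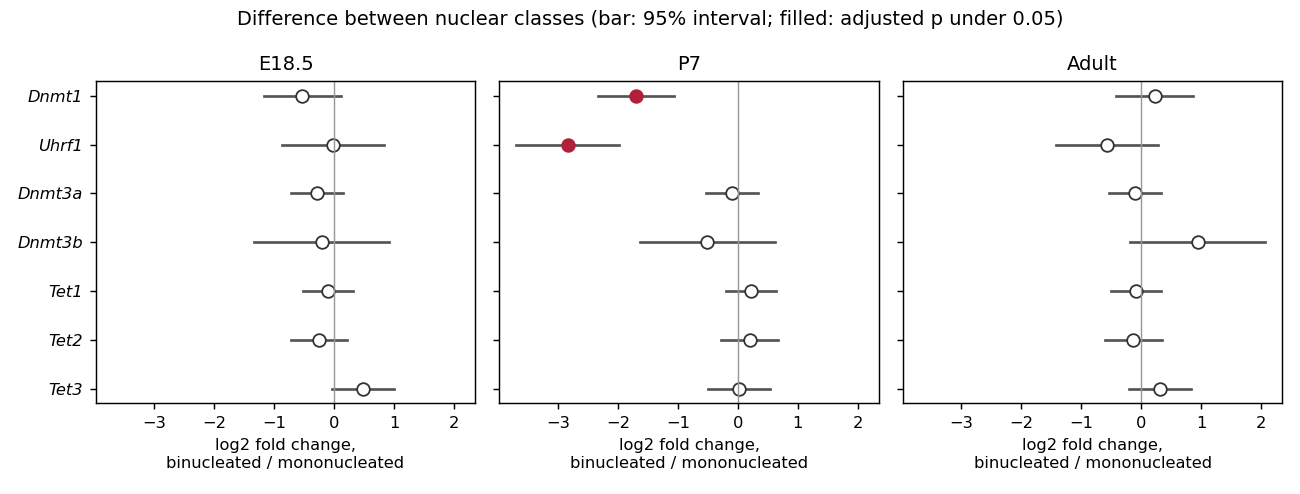
Log2 fold change of binucleated against mononucleated cells for each gene at the 3 ages, with 95% intervals from limma; filled points have an adjusted p under 0.05. The filled points are Dnmt1 (-1.69) and Uhrf1 (-2.84) at P7.

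Whether the class difference itself changed with age was tested directly. Between E18.5 and P7 it moved by -2.82 ± 0.57 on the log2 scale for Uhrf1 (limma adjusted p = 0.014), 1 of 7 genes lower in this contrast beside 2.1% of all genes. For Dnmt1 it moved by -1.16 ± 0.42 (adjusted p = 0.202). Without E18.5 binucleated library 1 the values were -3.14 for Uhrf1 (adjusted p = 0.00485) and -1.62 for Dnmt1 (adjusted p = 0.00415), so the Dnmt1 call depended on that library. That library held the least fibroblast, endothelial and leukocyte transcripts of its group. Between P7 and the adult the class difference closed by 1.91 ± 0.42 for Dnmt1 (adjusted p = 0.0854) and by 2.27 ± 0.57 for Uhrf1 (adjusted p = 0.143). In limma 0 of 7 genes were called there, beside 0.208% of all genes, and 0 passed with voom weights. Of the 7, 2 had an unadjusted p under 0.05, beside 568 of all 12048 genes. With the replicate number as a block within each age, Dnmt1 was called (adjusted p = 0.0131). It was also called without E18.5 binucleated library 1 (adjusted p = 0.00376), and Uhrf1 was called without adult mononucleated library 2 (2.81, adjusted p = 0.021).

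The step from E18.5 to P7 was then examined within each class. In mononucleated cells 0 of 7 genes changed from E18.5 to P7 in limma, where 10.7% of all genes rose and 7.84% fell, and voom weights called 0. Of the 7, 0 had an unadjusted p below 0.05, beside 3711 of all 12048 genes. The differences were 0.19 ± 0.30 for Dnmt1 and 0.31 ± 0.40 for Uhrf1 (log2). In binucleated cells 2 of 7 genes fell, beside 17.7% of all genes, and 3 with voom weights, Tet3 being the third (adjusted p = 0.0496). Markers of other cell types fell in the same comparison (fibroblast 8 of 8, endothelial 9 of 9, leukocyte 5 of 5 and epicardial 4 of 4 lower), and their part in the falls was not tested. Uhrf1 fell 5.69-fold (log2 -2.51 ± 0.40, limma adjusted p = 0.000178), with all 3 P7 libraries below all 3 E18.5 libraries. Dnmt1 fell 1.97-fold (log2 -0.98 ± 0.30, adjusted p = 0.0189), with the groups overlapping through E18.5 library 1. Without that library the falls were -2.82 for Uhrf1 (adjusted p = 6.74e-05) and -1.43 for Dnmt1 (adjusted p = 6.46e-05), and Dnmt3b also passed (-1.33, adjusted p = 0.0357). The Dnmt1 call was lost without E18.5 binucleated library 2 (-0.68, adjusted p = 0.0862) or 3 (-0.81, adjusted p = 0.0647), without P7 binucleated library 1 (-0.92, adjusted p = 0.0604) or 2 (-0.91, adjusted p = 0.059), and in a fit of the compared groups alone (adjusted p = 0.131).

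From P7 to the adult 6 of the 7 genes fell in mononucleated cells, beside 22.3% of all genes lower and 19.1% higher. The same 6, all but Dnmt3b, fell in binucleated cells, beside 19.7% lower and 17.3% higher. The median log2 change of the 7 genes was -1.43 in mononucleated and -1.13 in binucleated cells, beside -0.01 and -0.03 for all genes. Uhrf1 had the largest fall of the 7 in both classes, 72.2-fold in mononucleated (log2 -6.17 ± 0.40, limma adjusted p = 7.07e-09) and 15-fold in binucleated cells (log2 -3.91 ± 0.40, adjusted p = 1.25e-06). Dnmt1 fell 7.63-fold in mononucleated (log2 -2.93 ± 0.30, adjusted p = 9.51e-07) and 2.03-fold in binucleated cells (log2 -1.02 ± 0.30, adjusted p = 0.0133). The latter call was lost without P7 binucleated library 3 (-0.90, adjusted p = 0.0557). Endothelial markers rose over the same interval, from between 6.48 and 18.9 CPM in the P7 libraries to between 71.8 and 103 CPM in the adult ones (9 of 9 higher in both classes). Leukocyte markers went from between 0.175 and 1.11 CPM to between 4.42 and 7.22 CPM, and the part of these cells in the falls was not tested.

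Uhrf1 thus fell further than Dnmt1 within the same libraries. The log2 level of Uhrf1 minus that of Dnmt1 averaged -0.42 at E18.5, -1.12 at P7 and -4.18 in the adult over 6 libraries each. The classes differed at P7, with means of -0.55 in mononucleated and -1.69 in binucleated cells, against -0.67 and -0.16 at E18.5. The shift from E18.5 to P7 over both classes did not pass (exact permutation, adjusted p = 0.096). The adult libraries, between -4.98 and -2.88, lay below all P7 libraries, between -1.90 and -0.31. The shift from P7 to the adult was -3.07 and that from E18.5 -3.77, each with an exact two-sided permutation p = 0.005, the smallest that the 400 arrangements of ages within nuclear class allow (adjusted p = 0.012 over 12 tests). These 2 shifts share the adult libraries. Without E18.5 binucleated library 1 the shift from E18.5 was -3.70. Libraries with the same number deviated together at P7 and in the adult. Permuting them together leaves 20 arrangements, with a smallest p of 0.1, which these shifts had, so that no balance could pass in that form.

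Dnmt3a, the most abundant of the de novo enzymes, showed no detectable class difference at P7. It read 171, 137 and 122 CPM in mononucleated and 130, 133 and 135 CPM in binucleated cells at P7. At E18.5 it read 105, 117 and 135 CPM against 84.1, 87.4 and 122 CPM. In the adult it read 90.6, 53.0 and 50.7 CPM against 63.1, 52.3 and 59.3 CPM. Every adult library lay below every P7 library. Dnmt3a fell 2.27-fold in mononucleated (log2 -1.18 ± 0.20, limma adjusted p = 0.000191) and 2.28-fold in binucleated cells (log2 -1.19 ± 0.20, adjusted p = 0.000215) from P7 to the adult. From E18.5 to P7 in binucleated cells its level differed by 0.46 ± 0.20 on the log2 scale, with no overlap between the groups and an adjusted p of 0.0897. It was 0.36 without E18.5 binucleated library 1 (adjusted p = 0.198), and it was called without E18.5 binucleated library 3 (0.63, adjusted p = 0.0294) or adult mononucleated library 1 (adjusted p = 0.0354). The antisense gene Dnmt3aos overlaps exons of Dnmt3a on the opposite strand, and the use of strand in the counting is not given here, so reads of the pair cannot be told apart.

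Dnmt3b, the second de novo enzyme, was scarce throughout, with 11 to 84 counts per library. At E18.5 it read 2.44, 2.98 and 1.08 CPM in mononucleated and 0.70, 3.30 and 2.14 CPM in binucleated cells. At P7 it read 1.82, 1.49 and 1.22 CPM against 0.757, 1.30 and 1.13 CPM. Adult values were 0.604, 0.760 and 1.41 CPM in mononucleated and 1.6, 1.6 and 1.9 CPM in binucleated cells. The adult classes did not overlap, with binucleated cells higher by 0.94 ± 0.53 on the log2 scale, and this did not pass the test (limma adjusted p = 1.0). Dnmt3b was the exception to the adult fall, at -0.76 ± 0.53 in mononucleated (adjusted p = 0.278) and 0.69 ± 0.53 in binucleated cells (adjusted p = 0.334).

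Compared per kilobase of exon, the methyltransferase transcripts changed in make-up as well as in amount. Length here counts all annotated exon bases of a gene, 16642 for Dnmt3a and 7377 for Dnmt1. In mononucleated cells at P7 the 3 genes summed to 22.7 ± 1.34 CPM per kb (SD, n = 3), of which Dnmt1 made up 61.0 ± 4.98% and Dnmt3a 37.7 ± 4.79%. Without division by length Dnmt3a stood above Dnmt1 in these cells (143 against 102 CPM), so their order depends on the lengths used. In binucleated cells of that age the sum was 12.5 ± 0.785 CPM per kb, with 34.4 ± 3.0% from Dnmt1 and 64.0 ± 2.94% from Dnmt3a. The P7 binucleated shares of Dnmt1 and Dnmt3a resembled the adult ones more than those of P7 mononucleated cells. That of Dnmt3b, 1.67%, was nearer to the P7 mononucleated 1.30% than to the adult 3.42% and 5.61%. Adult sums were 5.93 ± 1.65 CPM per kb in mononucleated and 5.94 ± 0.481 CPM per kb in binucleated cells, with 31.6 ± 5.49% and 35.5 ± 1.06% from Dnmt1. Dnmt3b contributed between 1.30% and 5.61% on average in the 6 groups. The log2 level of Dnmt3b minus that of Dnmt3a passed in no pair of ages (exact permutation, adjusted p = 0.06 for P7 to adult, 0.08 for E18.5 to P7 and 0.655 for E18.5 to adult). It gained a call from P7 to the adult with an offset of 2 (adjusted p = 0.04), with ages permuted over both classes (0.0408) and without adult mononucleated library 1 (0.01), and from E18.5 to P7 without E18.5 binucleated library 1 (0.0343) or mononucleated library 3 (0.02).

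**Figure D3:**
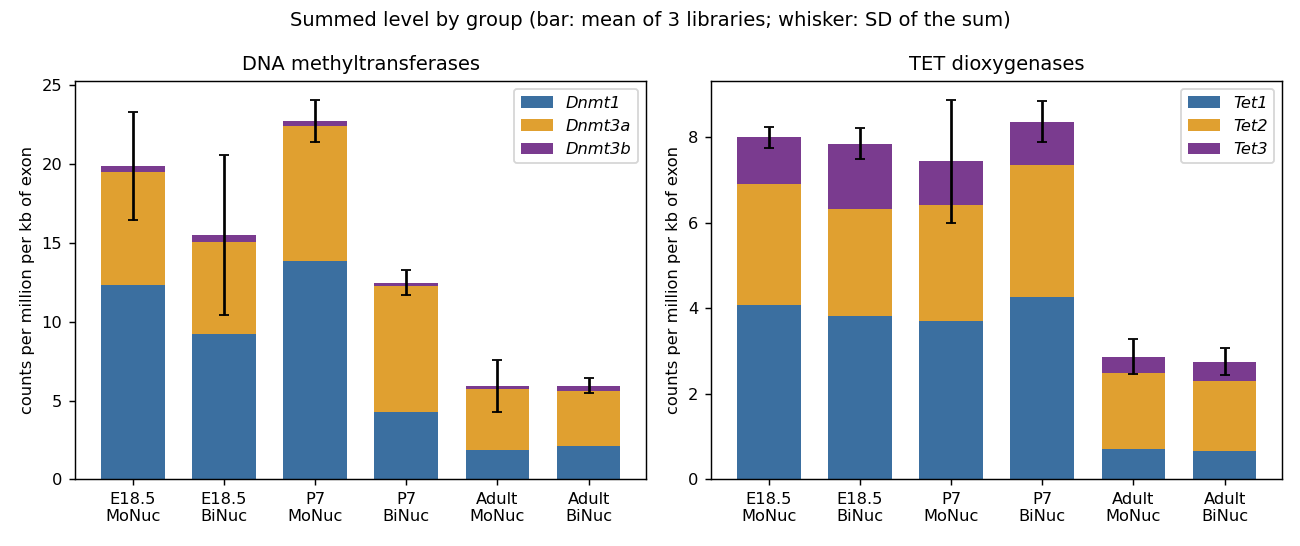
Summed level per kilobase of exon of the 3 methyltransferases (left) and the 3 TET genes (right) in the 6 groups, stacked by gene; bars are means of 3 libraries and whiskers the SD of the sum. Dnmt1 makes up 61.0% of the methyltransferase sum in mononucleated and 34.4% in binucleated cells at P7, while the TET sum stays between 7.44 and 8.37 up to P7 and is 2.87 and 2.76 in the adult groups.

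Among the erasers, Tet1 had the largest adult fall and no detected class difference at any age. It read 59.0, 65.9 and 64.6 CPM in mononucleated and 64.5, 50.1 and 62.9 CPM in binucleated cells at E18.5. At P7 it read 69.4, 58.6 and 44.0 CPM against 70.8, 62.2 and 64.6 CPM. Adult values were 12.1, 8.85 and 12.1 CPM against 13.4, 9.60 and 8.27 CPM. All 6 adult libraries lay far below all 12 younger ones. Tet1 fell 5.17-fold in mononucleated (log2 -2.37 ± 0.20, limma adjusted p = 9.62e-08) and 6.43-fold in binucleated cells (log2 -2.69 ± 0.20, adjusted p = 3.05e-08) from P7 to the adult.

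Tet2, which lacks the CXXC domain that lets full-length Tet1 and Tet3 bind CpG-rich DNA, fell least of the TET genes. At E18.5 it read 55.1, 43.8 and 44.1 CPM in mononucleated and 24.4, 51.5 and 50.1 CPM in binucleated cells. At P7 it read 51.8, 44.6 and 41.0 CPM against 55.8, 48.8 and 52.4 CPM. In the adult it read 33.2, 26.3 and 30.9 CPM against 29.8, 27.5 and 25 CPM. The adult libraries lay below all P7 libraries, and E18.5 binucleated library 1, the only younger library as low, lay below all adult ones. The fall from P7 was 1.52-fold in mononucleated (log2 -0.60 ± 0.22, limma adjusted p = 0.0395) and 1.91-fold in binucleated cells (log2 -0.93 ± 0.22, adjusted p = 0.00337). The mononucleated call was lost with a replicate block (adjusted p = 0.0576), with no intensity trend (adjusted p = 0.05) and without P7 mononucleated library 1 (adjusted p = 0.133) or 2 (0.0775) or adult mononucleated library 2 (0.131) or 3 (0.0733). The antisense gene Gm42567 likewise overlaps Tet2 exons.

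Tet3 was the scarcest of the TET genes per kilobase. At E18.5 it read 19.7, 18.3 and 16.4 CPM in mononucleated and 32.8, 23.9 and 20.4 CPM in binucleated cells. At P7 it read 22.4, 15.8 and 12.7 CPM against 17.4, 19.4 and 13.8 CPM. Adult values were 8.18, 4.77 and 5.88 CPM against 7.74, 7.33 and 7.75 CPM. The E18.5 classes did not overlap, with binucleated libraries higher, but the difference of 0.48 ± 0.24 on the log2 scale did not pass (limma adjusted p = 0.385). Binucleated library 1 was the highest, and without it the difference was 0.29 (adjusted p = 0.79). Between P7 and the adult Tet3 fell 2.69-fold in mononucleated (log2 -1.43 ± 0.24, adjusted p = 0.000187) and 2.19-fold in binucleated cells (log2 -1.13 ± 0.24, adjusted p = 0.0016).

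The make-up of the TET transcripts turned over with age in both classes. Per kilobase, Tet1 gave 49.7 ± 2.22% of the TET sum in mononucleated and 50.9 ± 0.916% in binucleated cells at P7, and 24.7 ± 1.43% and 24.2 ± 3.30% in the adult. Tet2 gave 36.8 ± 3.02% and 37.1 ± 1.24% at P7 and 62.3 ± 1.97% and 59.1 ± 1.79% in the adult. Tet1 was the leading TET transcript at P7 and Tet2 in the adult, and the mean sum went from 7.44 and 8.37 to 2.87 and 2.76 CPM per kb. Within libraries, the log2 level of Tet1 minus Tet3 shifted by -1.25 from P7 to the adult and by -0.89 from E18.5 (exact two-sided permutation p = 0.005 each, the smallest possible, adjusted p = 0.012). Tet2 minus Tet3 shifted by 1.04 from E18.5 to the adult (exact permutation, adjusted p = 0.012) and by 0.51 from P7 (adjusted p = 0.04). The last call was lost when any of 8 libraries was left out (adjusted p = 0.05 to 0.06). Without E18.5 binucleated library 1 the shifts from E18.5 were -0.95 and 0.77. With same-number libraries permuted together, each of these 4 shifts had the smallest possible p of 0.1.

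Against E18.5, the adult again had 6 of 7 genes lower in mononucleated cells, beside 27.7% of all genes, and 6 of 7 in binucleated cells, beside 29.4%. These comparisons share the adult libraries with those against P7. The falls in mononucleated cells were 58.1-fold for Uhrf1, 6.70-fold for Dnmt1, 5.79-fold for Tet1, 2.94-fold for Tet3, 1.89-fold for Dnmt3a and 1.58-fold for Tet2. In binucleated cells they were 85.2-fold for Uhrf1, 5.75-fold for Tet1, 3.98-fold for Dnmt1, 3.30-fold for Tet3, 1.66-fold for Dnmt3a and 1.45-fold for Tet2. Without E18.5 binucleated library 1 the log2 change in binucleated cells went from -6.41 to -6.73 for Uhrf1, from -1.99 to -2.45 for Dnmt1, from -2.52 to -2.46 for Tet1, from -1.72 to -1.53 for Tet3, from -0.73 to -0.83 for Dnmt3a and from -0.54 to -0.89 for Tet2, and all 6 stayed called. Tet2 in binucleated cells (log2 -0.54 ± 0.22, limma adjusted p = 0.0483) overlapped between the ages and lost its call in 20 of 28 alternatives, while without E18.5 library 1 it was -0.89 (adjusted p = 3.96e-05). Tet2 in mononucleated cells lost its call without E18.5 mononucleated library 1 (adjusted p = 0.0825) or adult mononucleated library 2 (adjusted p = 0.0756). Dnmt3b in mononucleated cells, at -1.17 (adjusted p = 0.0749), gained one without E18.5 binucleated library 1 (adjusted p = 0.0259), E18.5 mononucleated library 3 (adjusted p = 0.027) or adult mononucleated library 3 (adjusted p = 0.0434).

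Ordered by mean level, the groups ran as follows. Dnmt1 descended from P7 mononucleated (102 CPM) through E18.5 mononucleated (91.0), E18.5 binucleated (67.9), P7 binucleated (31.7) and adult binucleated (15.6) to adult mononucleated cells (13.7), and P7 binucleated was the only group whose range was clear of the next one down. Uhrf1 had 2 such gaps, from 56.1 CPM in E18.5 mononucleated to 10.1 in P7 binucleated and on to 1.11 in adult mononucleated cells. For Tet1 and Tet3 the gap lay between the younger groups and the adult, and Tet3 had another below E18.5 binucleated cells. Neighbours in the order overlapped throughout for Dnmt3a, Dnmt3b and Tet2.

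The levels of Dnmt1 and Uhrf1 across libraries followed those of S-phase genes, as a description. A list of 15 such genes (the replicative helicase subunits Mcm2 to Mcm7, Cdt1, Gins2, polymerase subunits, ribonucleotide reductase, E-type cyclins and E2f1) summed to 1470 to 2080 CPM in mononucleated and 361 to 526 CPM in binucleated cells at P7, and to 108 to 151 CPM in the adult. All 15 were lower in binucleated cells at P7 (median log2 -2.35, beside 0.02 for all genes, of which 2.06% were lower). This list, like those below, was chosen with earlier results of these data known, so the count is a description. Ccne2 was 7.51-fold lower (limma adjusted p = 1.68e-05), Rrm2 3.62-fold (8.02e-05) and Mcm6 5.82-fold (0.000185). All 15 fell from P7 to the adult in mononucleated and 13 of 15 in binucleated cells, beside 22.3% and 19.7% of all genes. In E18.5 binucleated cells the sum ranged from 903 CPM, in library 1, to 1660 CPM.

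**Figure D4:**
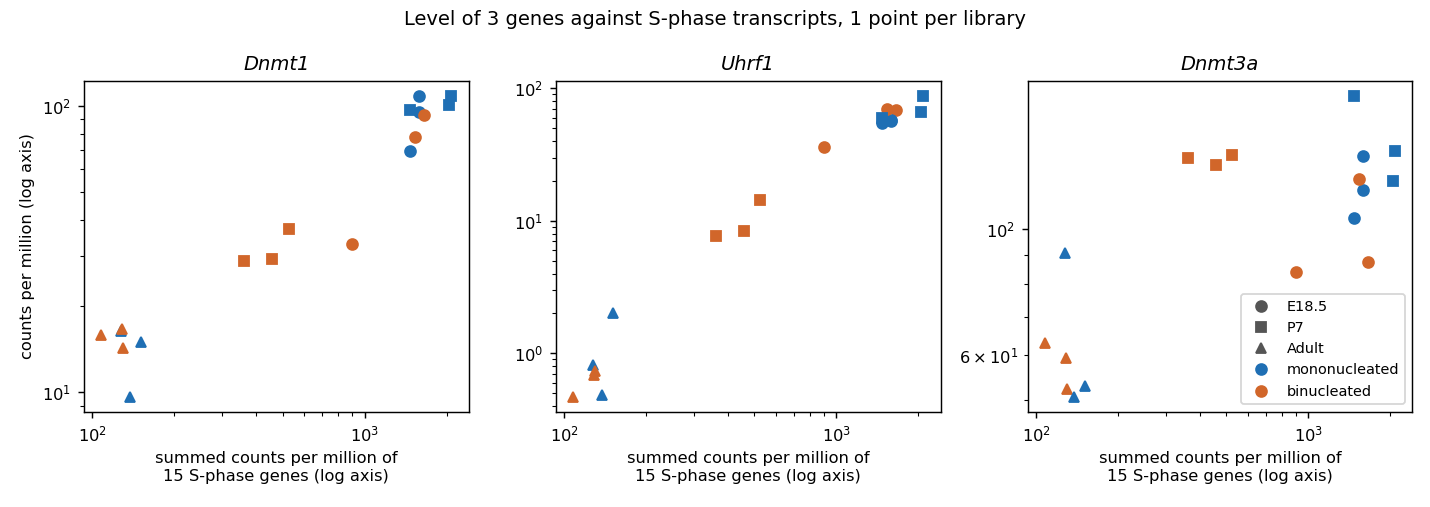
CPM of Dnmt1, Uhrf1 and Dnmt3a (log axis) against the summed CPM of the 15 S-phase genes (log axis), 1 point per library; shape gives the age and colour the nuclear class. For Dnmt1 and Uhrf1 the P7 binucleated libraries (sum of 361 to 526 CPM) lie between the adult and the remaining libraries, except that E18.5 binucleated library 1 has 32.8 CPM of Dnmt1, within their range, whereas Dnmt3a stays at 130 to 135 CPM in them.

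Over the 18 libraries the genes most like Dnmt1 in log2 level were Mcm7 (Pearson r = 0.98), Dna2, Atad2, Rad54l and Timeless, and those most like Uhrf1 were Rad54l (r = 0.992), Mastl, Fignl1, Rfc5 and Rrm2. Dnmt1 and Uhrf1 correlated at 0.953. Dnmt3a was most like Cul7 (0.948), Tmem132a, Kctd3, Ezr and Fam171a1. Tet1 was most like Cd1d1 (0.98), the slow skeletal troponin gene Tnni1, which is the fetal cardiac form, Nras, Marcksl1 and Sgce. Tet3 was most like Bend4 (0.964), Ptgr1, Psph, Nras and Zfp467, and Tet2 most like Stag2 (0.95), Ubfd1, Mob1b, Ireb2 and Ccdc50. For Dnmt3b the closest was Ocrl at 0.802, then Boc, Hspa12b and Nelfa. The libraries share age and class, so many genes reach such values: 785 genes correlated with Uhrf1 at 0.9 or more, 589 with Tet1, 246 with Tet3, 211 with Dnmt1, 48 with Tet2, 35 with Dnmt3a and 0 with Dnmt3b.

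Partners of maintenance methylation included genes that differed between the classes at P7. Of 10 listed, 4 were lower in binucleated cells at P7, namely Pcna, the sliding clamp that binds Dnmt1 (2.80-fold, limma adjusted p = 0.000909), the ligase Lig1 (5.83-fold, 0.00118), Cdca7 (3.28-fold, 0.00863), which recruits the remodeller Hells, and the clamp-associated factor Pclaf. The median of the 10 was -1.6 on the log2 scale, beside 0.02 for all genes, of which 2.06% were lower. In the adult 8 of 10 were lower than at P7 in mononucleated cells, with Cdca7 16.3-fold and Lig1 24.1-fold lower, and 6 of 10 fell in binucleated cells, beside 22.3% and 19.7% of all genes. Of 13 measured partners and chromatin marks of the de novo enzymes 0 passed between the classes at P7 in limma, beside 2.12% of all genes in either direction. Of the 13, 1 had an unadjusted p under 0.05, beside 1210 of all 12048 genes. Between P7 and the adult 6 of them fell in mononucleated and 7 in binucleated cells, beside 22.3% and 19.7% of all genes. Nsd2, which writes the H3K36 dimethylation that Dnmt3a binds, fell 2.87-fold and 1.93-fold, and Atrx, a remodeller with an ADD domain like that of Dnmt3a, 2.12-fold and 1.99-fold. Of the 8 methyl-CpG readers 2 fell in adult mononucleated cells, Mbd4, a thymine glycosylase, 3.01-fold and Zbtb33 2.20-fold, a share near the 22.3% of all genes that fell. Levels were low, with Mbd4 going from 6.2 to 2.07 CPM (limma adjusted p = 0.0141) and Zbtb33 from 1.93 to 0.881 CPM (0.0443). In binucleated cells 0 readers passed in limma, beside 37.0% of all genes in either direction. Of these readers 0 had an unadjusted p under 0.05, beside 5424 of all 12048 genes.

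On the demethylation side, the list of TET partners and of enzymes of 2-oxoglutarate supply held more called genes that rose than fell. From P7 to the adult 7 of 12 rose and 3 fell in mononucleated cells, and 4 rose and 2 fell in binucleated cells. Of all genes 19.1% rose and 22.3% fell in mononucleated and 17.3% and 19.7% in binucleated cells, so the falling counts were near the background. Isocitrate dehydrogenase Idh1, which makes 2-oxoglutarate, rose 1.87-fold and 1.83-fold (limma adjusted p = 2.42e-05 and 3.99e-05). Cxxc5, a CXXC protein that binds Tet2, fell 1.93-fold and 1.66-fold. Of 12 base excision genes, 4 rose and 3 fell from P7 to the adult in mononucleated and 3 rose and 3 fell in binucleated cells, beside the shares of all genes above. Tdg, the glycosylase that removes the oxidised bases made by TET enzymes, fell from 37.4 ± 10.8 to 11 ± 3.95 CPM in mononucleated (3.45-fold, adjusted p = 0.000483) and from 35.4 ± 11.6 to 10.2 ± 3.75 CPM in binucleated cells (3.50-fold, 0.000498). Gadd45a, a stress-response gene linked to demethylation, rose from 12 ± 4.69 to 59.0 ± 8.34 CPM and from 12.6 ± 4.81 to 65.7 ± 12.4 CPM (5.14-fold and 5.46-fold). The glycosylase Neil3 was 4.52-fold lower in binucleated cells at P7 (3.10 ± 0.495 against 14.1 ± 2.41 CPM, adjusted p = 0.00463) and had 0 counts in all 3 adult mononucleated libraries.

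The cycle that supplies S-adenosylmethionine, the methyl donor, had called genes in both directions. Between P7 and the adult 5 of 16 measured genes rose and 4 fell in mononucleated cells, and 7 rose and 3 fell in binucleated cells. The falling counts were near the shares of all genes, 22.3% and 19.7%, and those rising stood beside 19.1% and 17.3%. Gnmt, which consumes the donor by methylating glycine, rose 12.8-fold and 7.90-fold (limma adjusted p = 1.15e-06 and 1.35e-05). Amd1, which decarboxylates it for polyamine synthesis, rose 2.97-fold and 3.03-fold (2.14e-07 and 2.19e-07), and the adenosine kinase Adk rose 1.87-fold and 1.90-fold. The folate enzymes Mthfd2, Mthfd1l and Shmt1 fell in both classes. The class difference at P7 passed for 0 of the 16 genes in limma, beside 2.12% of all genes in either direction. An unadjusted p under 0.05 was reached by 3 of the 16, beside 1210 of all 12048 genes.

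**Figure D5:**
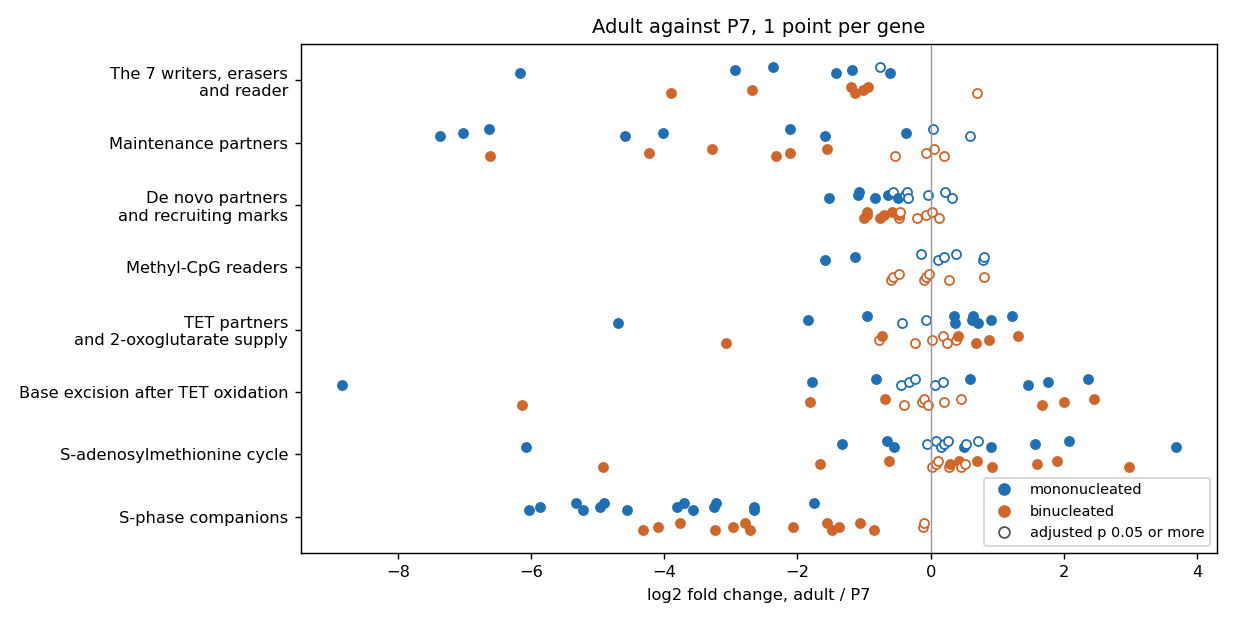
Log2 fold change from P7 to the adult for the 7 genes and for the genes of 7 pathway lists, 1 point per gene, blue for mononucleated and orange for binucleated cells; filled points have an adjusted p under 0.05. The S-phase list lies at or below 0 in both classes, and the 2-oxoglutarate and S-adenosylmethionine lists have called genes on both sides of 0. The leftmost point is Neil3, whose value depends on the offset because the adult mononucleated libraries held 0 counts of it.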

How the data were processed

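RNA from sorted cardiomyocytes was sequenced by the submitters, who aligned reads with STAR to the mm9 build and used limma, per the submitters' processing notes, with no versions given. Per the labels, library preparation used a stranded mRNA kit and an RNA amplification kit. Whether each library went through both is not given here, so a kit difference between groups was not tested. The deposited values are log2 values of a count plus an offset of 0.5, scaled per library by the authors. For every gene they resolved to whole counts within 0.001, so CPM was formed from the recovered counts and the deposited scaling. Levels per kilobase used the union of all annotated exons of a gene in GENCODE M21, which is on another build. Library totals were 14833334 to 22690952. limma 3.58.1 (R 4.3.3) was fitted to the deposited log2 values of all 18 libraries with 6 group means, an intensity trend and Benjamini-Hochberg adjustment over all 12048 genes, with a threshold of 0.05, and 11 contrasts were taken. Scripts were tested on simulated data. Balances between genes were tested by exact permutation. The members and gene lists were chosen with earlier results of these data known. Named pathway genes are up to 3 per list and contrast with the smallest adjusted p, and the 5 most alike genes per member by Pearson r; a few of the genes so chosen are not reported here. Other genes of these lists named in the text, where they make up the whole of a small count or recur in both classes, were chosen after their values were seen. Libraries with the same number deviated together at P7 (correlations of 0.182 to 0.236) and in the adult (0.261 to 0.327), so the numbers were taken to pair them there. The sample titles give the number and state no pairing. At E18.5 the correlations were lower, 0.0545 to 0.158, against -0.0949 to 0.00177 for unlike numbers. The alternatives were other scalings, an offset of 2, 2 filters on low values, voom and array weights, no trend, replicate blocks (the block within each age, and same-number libraries permuted together, were chosen after seeing the data), the compared groups alone and leaving out each library.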

Additional observations from a re-analysis of the deposited data

Results flagged for a closer look

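The difference between binucleated and mononucleated cells in Uhrf1 was not the same at E18.5 and at P7. It was -0.02 at E18.5 and -2.84 at P7 on the log2 scale, and the test of the change itself gave -2.82 ± 0.57 (limma adjusted p = 0.014, 3 libraries per group). Without E18.5 binucleated library 1 the change was -3.14 (adjusted p = 0.00485). That library had the lowest fibroblast sum of its group, 325 CPM. Fibroblast markers were higher in the E18.5 binucleated libraries than in the mononucleated ones and alike in both classes at P7, and their part in the change was not tested.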

How the results depend on the processing

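The P7 class calls of Dnmt1 and Uhrf1 held in all 30 alternatives, with log2 values of -1.81 to -1.63 and -3.12 to -2.67. Of 2201 values of single members, 2106 kept direction and side of the threshold, 34 lost a call, 19 gained one and 42 changed sign. The number of members called for the class difference between E18.5 and P7 was 2 with array weights and 1 to 2 with a library left out. Between P7 and the adult it was 2 with array weights, 1 with the replicate block in the P7 and adult libraries, in both its forms, 0 with the block over all 18 libraries, 1 with the compared groups alone and 0 to 1 with a library left out. From E18.5 to P7 in binucleated cells it was 1 with the compared groups alone and 1 to 3 with a library left out. With a replicate block over all ages Tet3 gained a call there (adjusted p = 0.0345). Beside these and the losses for Tet2 from P7 to adult mononucleated cells and from E18.5 to adult binucleated cells (adjusted p = 0.0675), the replicate block changed no other call of a member. With same-number libraries permuted together, no balance between genes passed, since the smallest p is 0.1.

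Sign changes, none with a called value, were as follows (log2). For the class difference at E18.5, Uhrf1 was 0.056 with quantile normalization, 0.0033 with median-of-ratios scaling, 0.011 with voom weights, 0.30 with array weights and -0.18 to 0.298 with a library left out. Dnmt3b was 0.17 and Tet2 0.073 with array weights, and with a library left out they were -0.678 to 0.41 and -0.44 to 0.099, as Tet1 was -0.169 to 0.013. At P7, Tet3 was -0.0076 with voom weights and -0.17 to 0.24, and Dnmt3a -0.21 to 0.037, with a library left out. In the adult, Dnmt3a was 0.038 with array weights and -0.25 to 0.16, Dnmt1 -0.012 to 0.37 and Tet1 -0.29 to 0.057 with a library left out. From E18.5 to P7 in mononucleated cells, leaving out a library gave -0.15 to 0.051 for Tet2, -0.35 to 0.058 for Tet3 and -0.31 to 0.015 for Tet1. From E18.5 to the adult in binucleated cells, Dnmt3b was 0.78 with quantile normalization and -0.64 to 0.45 with a library left out. For the change of the class difference from E18.5 to P7, Dnmt3b was 0.24 with quantile normalization and -0.93 to 0.17 with a library left out, and Dnmt3a -0.013 with array weights. From P7 to the adult, Dnmt3a was 0.049 with quantile normalization, 0.0002471 with median-of-ratios scaling, 0.090 with array weights and -0.16 to 0.26 with a library left out. Dnmt3b minus Dnmt3a from E18.5 to the adult was -0.027 to 0.51. The cause was not tested.

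Dnmt3b (11 to 84 counts per library) and adult Uhrf1 (8 to 29) are limited by depth. The filter to the upper 75% of genes removed Dnmt3b, and the filter of 10 counts in 3 libraries removed no gene. Median-of-ratios scaling moved the median of all genes by -0.03 to 0.03 on the log2 scale in the 11 contrasts.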
